A study of Mus musculus with 41 samples.

Results

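Potassium channel genes were described in RNA from the dorsal striatum of mice that had self-administered cocaine or saline. The members were all genes whose symbol starts with Kcn, apart from the antisense RNA gene Kcnq1ot1, with a mean CPM, counts scaled to a library of 1000000 counts on genes, of at least 1 over the 39 libraries of immunopurified RNA. This rule kept 63 of 97 Kcn symbols, out of 32531 genes in the count tables. All 63 were annotated in GENCODE M21 on the mouse build GRCm38, which is mm10, and 43 of them had a count in every purified library. The 34 symbols left out lay below the threshold, and 5 of these had no count in any library. Since the rule used the mean level, the levels are a description, while the comparisons between groups were not part of the rule.

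The libraries came from adult mice of the line Drd1-TRAP CP73, whose Drd1-expressing cells, those with the D1 dopamine receptor, carry the ribosomal protein Rpl10a fused to EGFP. The strain is labelled as FVB/N-Swiss Webster crossed for at least 9 generations to C57BL/6. Tagged polysomes were pulled down with antibodies against EGFP, a method called translating ribosome affinity purification, and the RNA bound to them was sequenced. Mice of all groups carried the transgene and took saline or cocaine intravenously in long-access self-administration. At 24 h after self-administration there were 5 libraries of the escalating cocaine group, 9 of the nonescalating cocaine group and 5 of the saline group. About 1 month after self-administration there were 4 escalating, 11 nonescalating and 5 saline libraries. Replicate numbers of the nonescalating groups restart once, after 6 libraries, leaving 3 more at 24 h and 5 more at 1 month. The self-administration is labelled extended for every purified library at 24 h, while at 1 month it is so labelled in the saline group and the first nonescalating run only. A further 2 libraries hold total RNA of saline mice before purification, called input here, and carry no time label. The labels do not say whether a library is 1 animal or a pool, so p-values measure only the spread between these libraries, which may be technical. The promoter of Drd1 restricts the tag to cells that express Drd1, so the purified RNA says nothing of cells without the tag, and a purification still holds some RNA of other cells.

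The libraries held 5394332 to 23925655 counts on genes, and the median was 11340272. The library of saline replicate 5 at 24 h differed from the rest, with the lowest total, the highest share of reads without a feature (37.1%), 11856 detected genes and a count for 51 of the 63 members. Of the 63 members, 10 had their highest CPM of all 39 purified libraries in this library and 23 had their lowest or tied lowest there. Saline replicate 3 at 24 h held the highest CPM of another 10 members, while no other library held more than 4. Results that rest on replicate 5 are therefore given with and without it. The 7 markers of D1 neurons summed to 1724 to 2645 CPM in the purified saline libraries and to 1150 and 960.3 CPM in the inputs. The 6 markers of D2 neurons summed to 145.7 to 270.7 CPM in the purified saline libraries, against 1409 and 1516 CPM in the inputs. D1 markers were thus higher and D2 markers lower in every purified saline library than in the inputs.

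Potassium channels let potassium ions leave or enter a cell and so set its resting potential, the delay and width of its action potentials and the pauses between them. Medium spiny neurons, the projection neurons of the striatum, are known for a strongly negative resting potential held by inward rectifiers, from which they are pulled to an up state, and for Shaker-type and A-type channels that delay the first spike. A pore is built from several alpha subunits, to which modifier subunits, cytoplasmic beta subunits and calcium-binding proteins can be added. The 63 members comprise 25 pore subunits of voltage-gated channels, 7 modifier subunits, 7 auxiliary subunits, 7 channels opened by calcium or sodium, 1 beta subunit of the large-conductance (BK) channel, 9 inward rectifiers, 6 two-pore domain (leak) channels and Kcnrg. Kcnrg is a soluble protein that in human cells holds back the assembly of voltage-gated channels.

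The genes on which the comparisons below turn are Kcna2, Kcng3 and Kcnc1. Their promoters are shown because these genes were fixed as named genes for every comparison. Kcna2 and Kcng3 were called lower in the saline group over time, Kcng3 only with 1 library described below, and Kcnc1 lay just beyond the threshold there. Kcnh6 was also called there, and its promoter is not shown. The sequences are those of RefSeq on GRCm38.p6, from 250 bases before to 50 bases after the start, each read along its gene. The promoter of Kcna2 lies at chr3:107101317-107101616 on the plus strand, that of Kcng3 at chr17:83631846-83632145 on the minus strand and that of Kcnc1 at chr7:46396218-46396517 on the plus strand.
Kcna2: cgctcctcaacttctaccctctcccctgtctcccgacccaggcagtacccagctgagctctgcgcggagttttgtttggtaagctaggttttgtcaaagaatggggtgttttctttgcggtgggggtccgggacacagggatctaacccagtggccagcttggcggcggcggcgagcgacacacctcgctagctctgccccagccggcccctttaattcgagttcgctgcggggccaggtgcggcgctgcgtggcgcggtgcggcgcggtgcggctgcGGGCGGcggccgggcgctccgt
Kcng3: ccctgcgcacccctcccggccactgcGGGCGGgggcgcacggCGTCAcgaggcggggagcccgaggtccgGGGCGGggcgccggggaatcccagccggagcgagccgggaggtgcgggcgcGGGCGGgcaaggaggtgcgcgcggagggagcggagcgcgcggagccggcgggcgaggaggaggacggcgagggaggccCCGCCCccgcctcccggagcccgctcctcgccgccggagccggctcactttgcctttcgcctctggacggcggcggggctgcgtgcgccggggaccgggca
Kcnc1: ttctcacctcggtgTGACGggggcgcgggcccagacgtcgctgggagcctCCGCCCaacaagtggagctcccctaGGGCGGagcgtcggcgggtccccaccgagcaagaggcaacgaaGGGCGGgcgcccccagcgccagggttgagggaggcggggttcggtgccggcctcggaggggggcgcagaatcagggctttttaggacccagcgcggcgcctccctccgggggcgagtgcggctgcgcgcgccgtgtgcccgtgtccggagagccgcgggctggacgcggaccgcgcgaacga

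The capitals mark letters of any of 4 motifs searched on both strands. These were GGGCGG (the GC box), TGACG (the half-site of the cyclic AMP response element), TGANTCA (the AP-1 site) and GCGTGGGCG (an Egr site, whose last letters overlap the start of a GC box). Kcna2 held 1 GC box, Kcng3 held 4 GC boxes and 1 half-site, and Kcnc1 held 3 GC boxes and 1 half-site. No AP-1 or Egr letters were present in these 3 windows. GC content was 66.67% for Kcna2, 82.0% for Kcng3 and 74.67% for Kcnc1, beside medians of 62.33% over the member promoters matched and 52.67% over all 32851 promoters of the table. GC boxes were present in 35.7% of all promoters and in 49.2% of the 61 promoters that matched 43 of the members by symbol. For the TGACG half-site these shares were 20.8% and 21.3%, for AP-1 letters 7.81% and 4.92%, and for Egr letters 0.612% and 0.0%.

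In purified RNA the voltage-gated pore subunits made up most of the summed level of the members. Per library, the 25 pore subunits summed to 3310.4 CPM on average, the 7 auxiliary subunits to 1070.77 CPM, the 7 calcium- or sodium-activated channels to 433.52 CPM and the 9 inward rectifiers to 298.5 CPM. The 7 modifier subunits summed to 225.77 CPM and the 6 two-pore domain channels to 172.16 CPM. Of the 63 members, 19 had a mean of at least 100 CPM and 42 of at least 10 CPM.

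Levels of different genes were compared per kb of exon, as mean CPM over the 39 purified libraries divided by exon length. The highest was Kcna1, a Shaker-type pore subunit, at 83.6 CPM per kb, followed by the auxiliary subunits Kcnip3 at 75.3 and Kcnip2 at 63.3 CPM per kb. Kcnip proteins bind calcium and attach to A-type channels. Their pore partner Kcnd2, the main A-type subunit of neuronal dendrites, stood at 51.0 CPM per kb. Further down were Kcna4 at 39.8, Kcnab1 at 38.6, Kcnab2 at 36.4, Kcna2 at 33.4 and Kcnq5 at 32.2 CPM per kb. Kcnab proteins are cytoplasmic beta subunits of Shaker channels, and Kcnq5 is a subunit of the M-current that muscarinic receptors close. These 5 genes lie close to each other, and their order was not tested.

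Among the other classes, the inward rectifiers Kcnj4 and Kcnj2, which hold the resting potential, stood at 26.9 and 25.8 CPM per kb. The leak channels Kcnk1 and Kcnk2 had 24.6 and 21.2 CPM per kb. The modifier subunits Kcng3 and Kcnv1, which form no channel alone and join Shab-type pores, had 15.6 and 11.2 CPM per kb. The sodium-activated channel Kcnt1 had 14.5, the small-conductance calcium-activated channel Kcnn3 had 12.2 and the BK channel Kcnma1 had 8.73 CPM per kb. The only BK beta subunit kept was Kcnmb4, at 0.749 CPM per kb. Just inside the threshold on CPM lay Kcnrg at 1.11, Kcnu1 at 1.19 and Kcnk9 at 1.29 CPM, and just outside it Kcnmb1 at 0.563 and Kcnh8 at 0.544 CPM. Of the 63 members 23 share exon bases with another annotated gene, 22 of them on the opposite strand, and 5 share over 10% of their bases. Kcna2, Kcng3, Kcnc1, Kcnh6, Kcnj4, Kcnh1 and Kcnj10 share none.

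**Figure D1:**
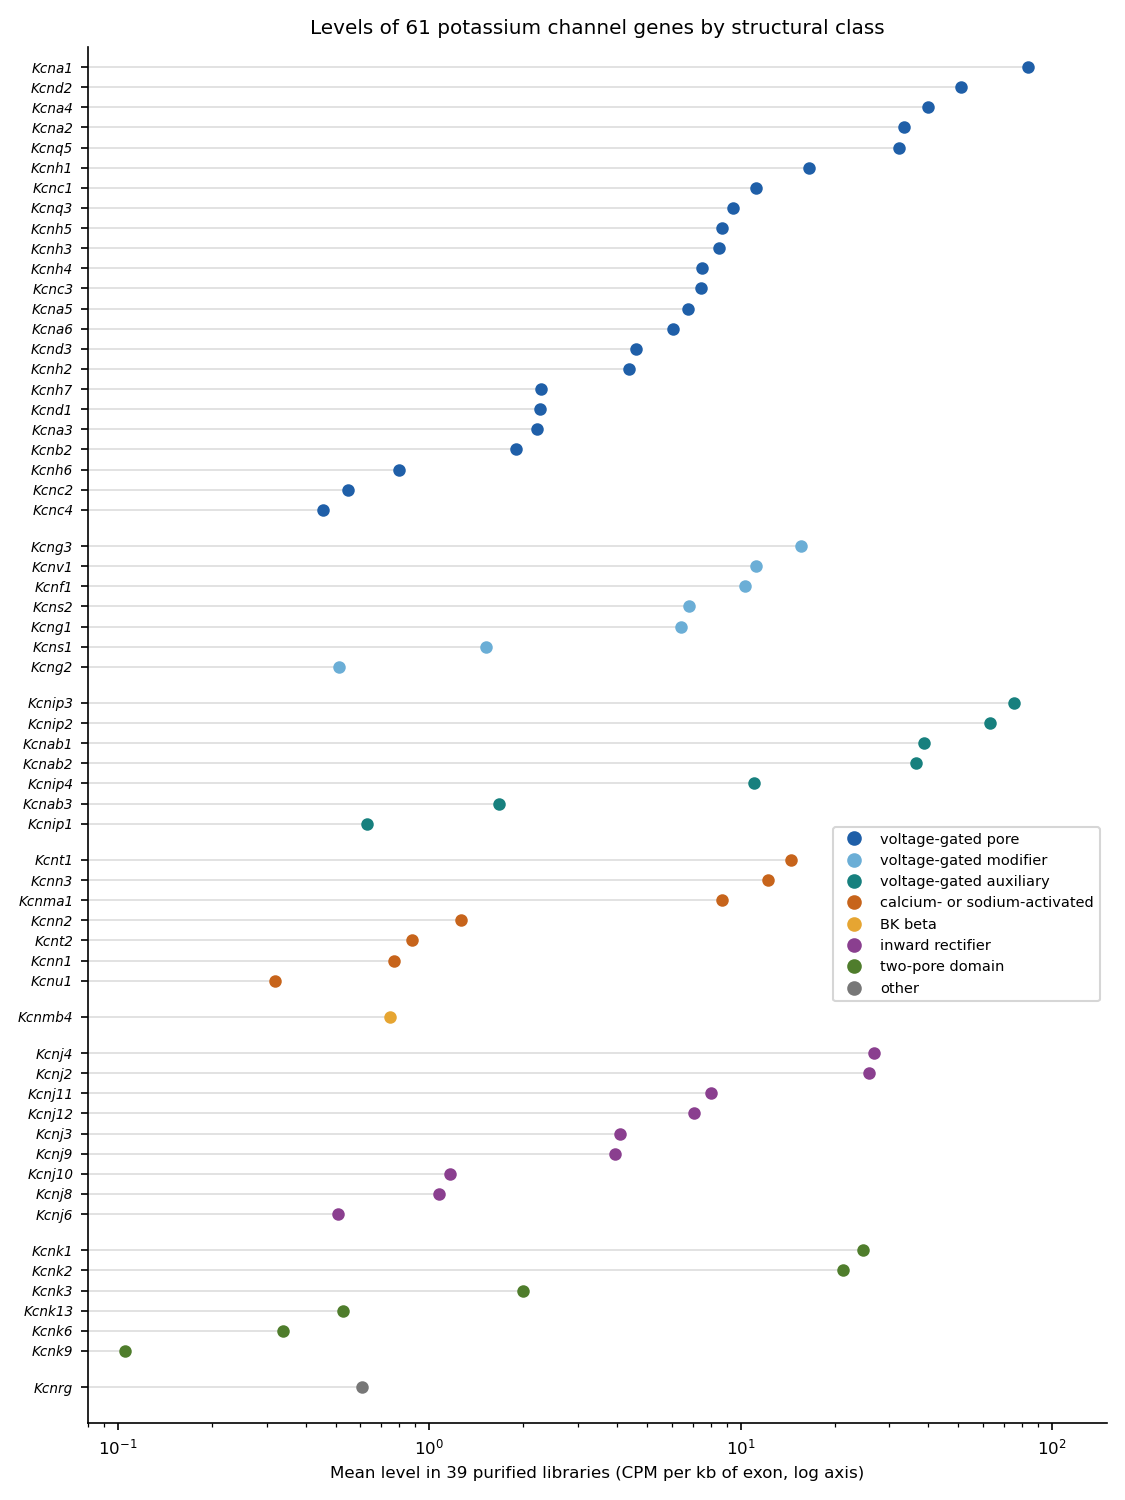
Mean level of 61 of the 63 members in the 39 purified libraries, in CPM per kb of exon on a log axis, with 1 point a gene, coloured and grouped by structural class. Kcna1, Kcnip3, Kcnip2 and Kcnd2 lie at the top, from 83.6 down to 51.0 CPM per kb.

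The members differed widely in how much they varied between purified libraries. The coefficient of variation of CPM over the 39 libraries was 11.6% for Kcnd2, against a median of 31.8% over the members. Of the 63 members 12 lay under 20%. By group, median Kcnd2 was 262.8 CPM in escalating, 251.4 CPM in nonescalating and 233.5 CPM in saline libraries at 24 h. At 1 month it was 263.6 CPM in escalating, 265.5 CPM in nonescalating and 270.8 CPM in saline libraries, and the ranges of these 6 groups overlapped. The 7 members above 100% were Kcng2, Kcnj8, Kcnj6, Kcng3, Kcnh6, Kcnrg and Kcnip1. The modifier subunit Kcng2 was the most variable at 266.6%, with 25.4 CPM (137 counts) in saline replicate 5 at 24 h and at most 4.85 CPM in the other libraries. Over the other 38 libraries its mean was 0.898 CPM, and it was the only 1 of the 63 members to lie below the threshold of the rule without that library. Kcng3 is the only one of these 7 with a mean above 5 CPM.

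Purified saline RNA was set against input to ask which channel genes take a larger or smaller share of RNA on tagged ribosomes than of total tissue RNA. In tissue RNA, fewer cells of a type and less RNA per cell cannot be told apart. Purified RNA is bound to ribosomes while input is total RNA. A difference between cells and a difference in binding to ribosomes therefore cannot be told apart either. The inward rectifier Kcnj4 and the ether-a-go-go channel Kcnh1 rose in purified RNA, and the inward rectifier Kcnj10, which clears potassium in astrocytes and oligodendrocytes, fell. These 3 of 63 members passed edgeR's quasi-likelihood test at a Benjamini-Hochberg adjusted p under 0.05. Of all 15305 genes tested 4.65% were called, 1.84% higher and 2.81% lower. At an unadjusted p under 0.05 the counts were 13 of 63 members, against 18.3% of all genes. The members' median log2 fold change was 0.25, against -0.01 over all genes.

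Kcnj4 had 48.3, 84.1, 59.3, 39.1 and 52.7 CPM in saline libraries at 1 month and 63.2, 66.3, 64.6, 36.7 and 56.7 CPM at 24 h, against 23.4 and 27.9 CPM in the inputs. Every purified library lay above both inputs. The log2 fold change was 1.33 ± 0.33 (± gives the standard error of each fold change, adjusted p = 0.0336, edgeR). Kcnh1 had 116.7, 166.5, 104.8, 96.7 and 126.2 CPM at 1 month and 101.2, 127.7, 248.4, 92.3 and 142.9 CPM at 24 h, against 62.2 and 58.3 CPM in the inputs. Again no purified library reached down to the inputs, and the fold change was 1.31 ± 0.35 (adjusted p = 0.0471).

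Kcnj10 had 8.52, 9.49, 10.4, 1.04 and 2.05 CPM at 1 month and 10.3, 4.11, 0.287, 25.4 and 2.17 CPM at 24 h, against 72.2 and 82.3 CPM in the inputs. The highest purified value was that of saline replicate 5 at 24 h, and it lay below both inputs. The log2 fold change was -3.22 ± 0.86 (adjusted p = 0.0469). The 8 astrocyte markers moved the same way, with summed levels of 178.3 to 346.7 CPM at 1 month and 141.4 to 1061 CPM at 24 h, against 2327 and 2035 CPM in the inputs. The 8 oligodendrocyte markers summed to 136.9 to 196.1 CPM at 1 month and 94.8 to 513.9 CPM at 24 h, against 1845 and 2010 CPM in the inputs. In purified libraries the astrocyte markers Gfap, Aldh1l1 and S100b and the oligodendrocyte markers Mog, Mag, Opalin and Cldn11 were at 0 in 1 or more of the saline libraries. The part of these cells in the result was not tested.

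Without saline replicate 5 at 24 h, 9 of 63 members were called, against 15% of all genes. Kcnj4 then had a log2 fold change of 1.39 ± 0.27, Kcnh1 one of 1.37 ± 0.30 and Kcnj10 one of -3.74 ± 0.67. Of the other 6, the 5 named here were chosen after their values were seen. Kcnc2, a fast channel known from interneurons, was lower (-2.57 ± 0.51, adjusted p = 0.00349), and so was the leak channel Kcnk2 (-0.70 ± 0.21, adjusted p = 0.0348). Higher were Kcnab2 (0.80 ± 0.18, adjusted p = 0.00673), Kcnq5 (0.69 ± 0.21, adjusted p = 0.0377) and Kcnip3 (0.64 ± 0.19, adjusted p = 0.0292). Kcnc2 had 3.59, 2.32, 2.37, 2.82 and 3.96 CPM at 1 month and 2.43, 1.70, 11.5, 0 and 4.03 CPM at 24 h, against 25.0 and 26.8 CPM in the inputs, with no overlap. The 12 interneuron markers summed to 44.1 to 152.2 CPM at 1 month and 32.4 to 235.5 CPM at 24 h, against 255.6 and 272.5 CPM in the inputs.

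With the 5 libraries at 1 month alone, 13 of 63 members were called against the inputs, beside 19.4% of all genes, while with the 5 libraries at 24 h alone 0 of 63 members and 0.0823% of all genes were called. Of these 13, 9 were higher and 4 lower. The 4 lower members were Kcnj10 (-3.43 ± 0.61), Kcnc2 (-2.93 ± 0.34), Kcnk2 (-0.72 ± 0.20) and the sodium-activated channel Kcnt1 (-0.55 ± 0.17). The call of each of the 3 members in the full comparison was also lost when either input was left out (adjusted p of 0.293 to 0.441). By class, 19 of 25 voltage-gated pore subunits and 6 of 7 modifier subunits had a positive fold change in purified RNA, with medians of 0.29 and 0.88, while 5 of 7 calcium- or sodium-activated channels had a negative one, with a median of -0.39. Of all genes tested, 49.4% had a positive fold change. The 7 modifier subunits summed to 718.0 CPM in saline replicate 5 at 24 h, against 159.7 to 232.7 CPM in the other purified saline libraries. In the inputs they summed to 223.0 and 153.4 CPM. Leaving out 1 library at a time moved the modifier subunit Kcng3 to between 0.31 and 1.23. These class counts were not tested. Kcna2 (0.29 ± 0.16, adjusted p = 0.368), Kcng3 (0.99 ± 0.79, adjusted p = 0.592) and Kcnc1 (0.25 ± 0.27, adjusted p = 0.706) did not pass the test, and DESeq2 called 4 of 63 members, Kcnj4, Kcnh1, Kcnj10 and Kcnc2, against 6.13% of all genes.

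**Figure D2:**
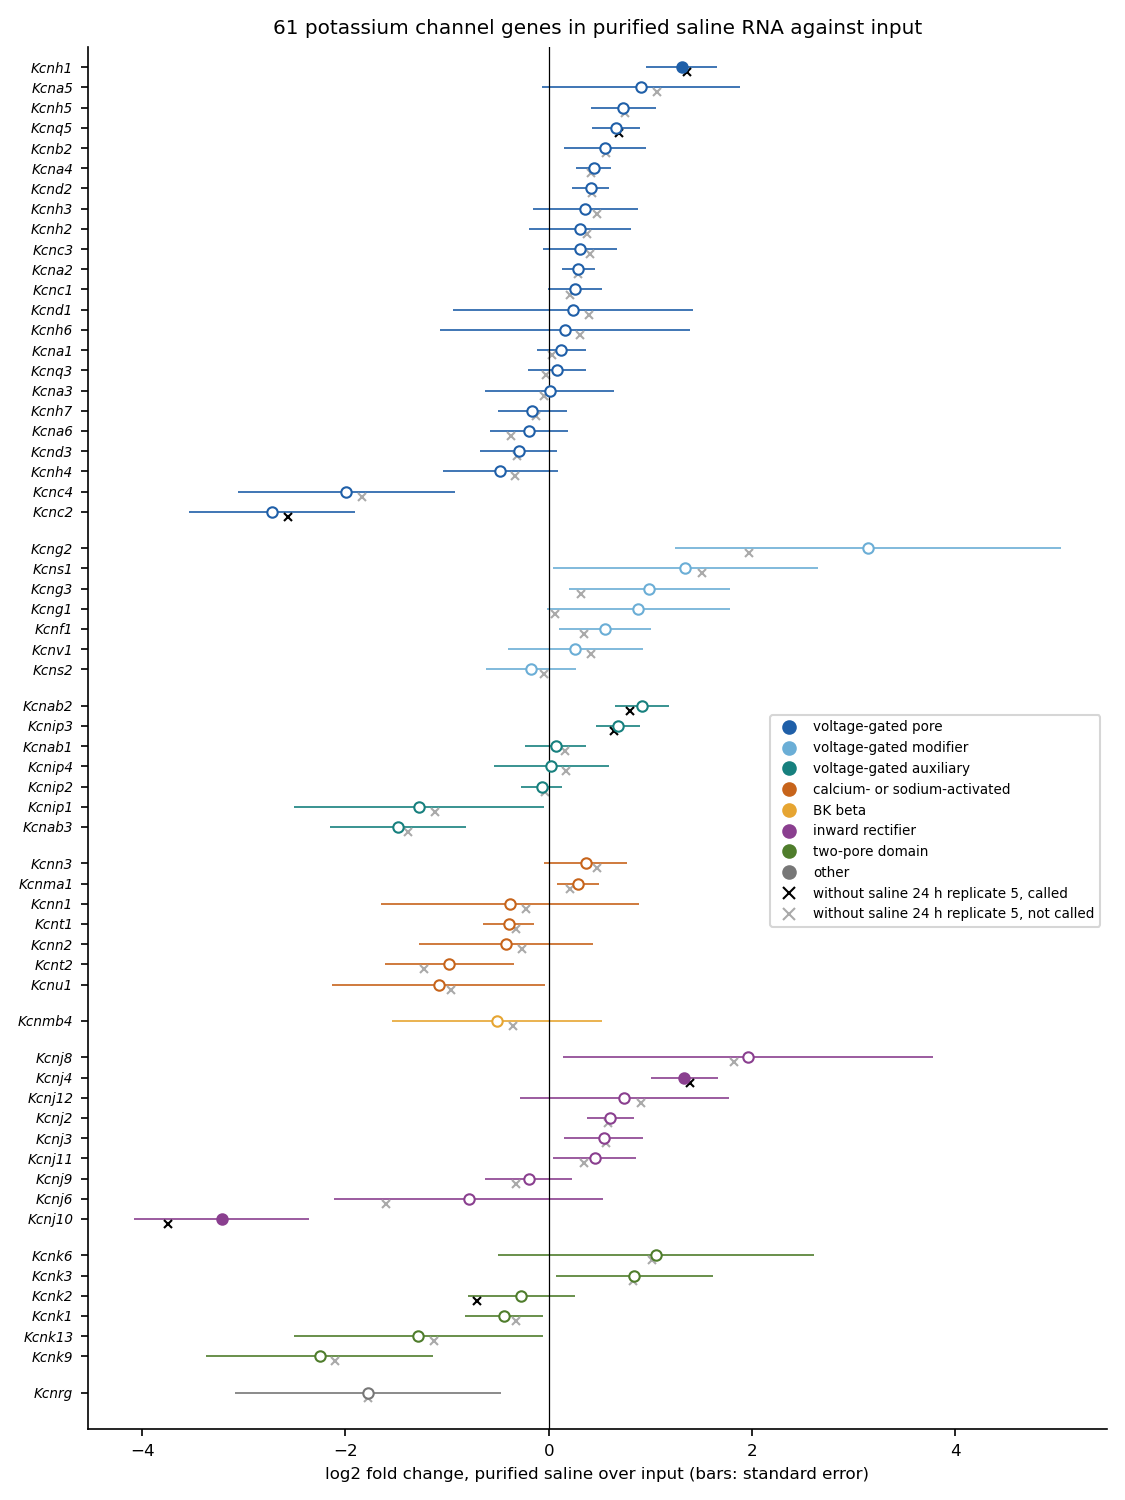
log2 fold change of 61 of the 63 members in purified saline RNA over input, with standard error bars, grouped by structural class. Filled points are called with all 10 purified libraries and crosses show the value without saline replicate 5 at 24 h, black where called. Kcnj4 and Kcnh1 lie at 1.33 and 1.31, and Kcnj10 at -3.22.

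**Figure D3:**
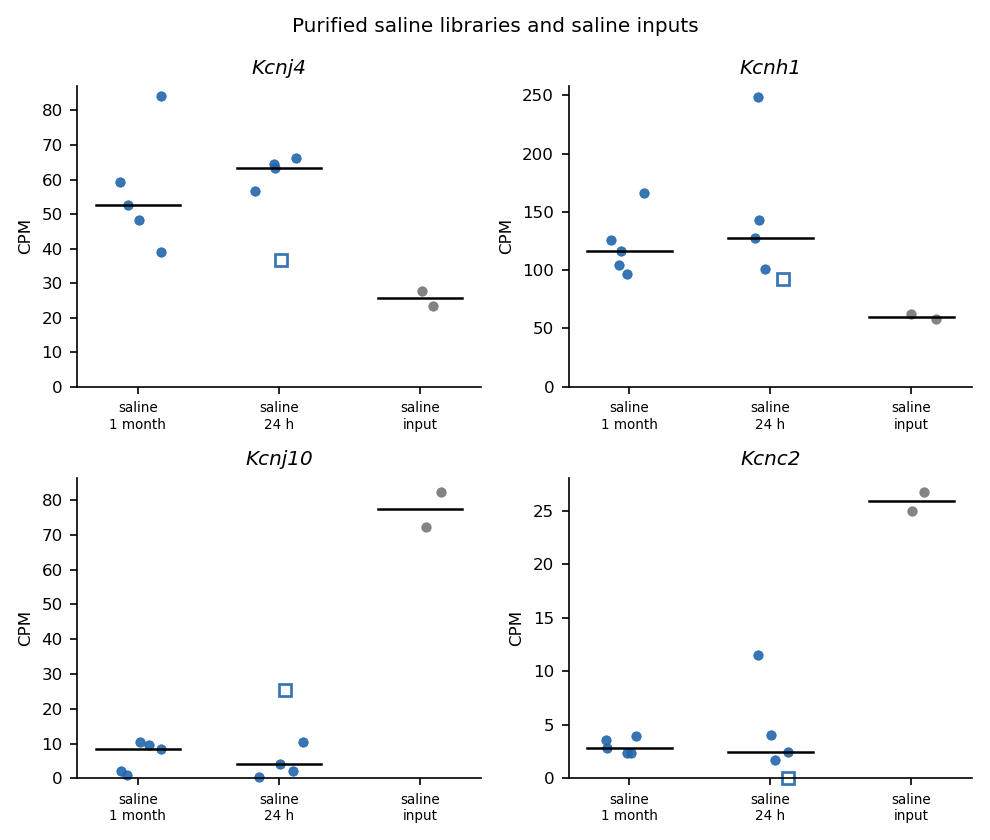
CPM of Kcnj4, Kcnh1, Kcnj10 and Kcnc2 in each saline library, purified at 1 month, purified at 24 h and input, with a line at each group's median. The open square is saline replicate 5 at 24 h. In each panel the 2 inputs lie outside the range of the 10 purified libraries.

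The saline group was compared between 1 month and 24 h. Its libraries held 11144951 to 17359995 counts on genes at 1 month and 5394332 to 12889230 at 24 h. Time cannot be told apart from depth or from other differences between these libraries. Kcna2, a Shaker-type subunit of the slowly inactivating current of medium spiny neurons, and the modifier subunit Kcng3 fell, and Kcnh6, an erg-type channel, rose. These 3 of 63 members were called, with 1 higher and 2 lower, against 0.843% of all 15190 genes (0.244% higher and 0.599% lower). At an unadjusted p under 0.05 there were 12 of 63 members, against 16.4% of all genes. The median log2 fold change was -0.12 over the members and -0.02 over all genes. DESeq2 called 7 of 63 members here, against 4.13% of all genes.

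Kcna2 (chromosome 3, 107101146 to 107115005) had 365.0, 398.0, 350.6, 333.8 and 313.2 CPM at 1 month, against 575.8, 505.8, 544.8, 521.3 and 503.2 CPM at 24 h. The 2 saline groups did not overlap. On the log2 scale the fold change was -0.65 ± 0.13 (adjusted p = 0.0207, edgeR) and stayed at -0.65 ± 0.13 without saline replicate 5 at 24 h (adjusted p = 0.0312). Without saline replicate 1 or 5 at 1 month the adjusted p was 0.0508 in each case.

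Kcng3 (chromosome 17, 83585957 to 83631895) had 31.6, 27.7, 47.1, 35.7 and 46.1 CPM at 1 month, against 30.9, 63.3, 72.7, 437.1 and 40.4 CPM at 24 h. The groups overlapped, and 1 library, saline replicate 5 at 24 h with 2358 counts of this gene, lay far above all others. The log2 fold change of -1.88 ± 0.43 (adjusted p = 0.0351, edgeR) became -0.53 ± 0.29 (adjusted p = 0.409) without saline replicate 5 at 24 h. Of the 10 fits with 1 library left out, 6 lost the call. In saline replicate 5 at 24 h the astrocyte markers summed to 1061 CPM, the oligodendrocyte markers to 513.9 CPM and the 8 endothelial and mural markers to 1607 CPM. Each sum was the highest of the saline purified libraries. Among the same libraries its cortical neuron markers were also the highest, at 320.3 CPM, and its D1 neuron markers the lowest, at 1724 CPM. The endothelial and mural markers had a median sum of 117.8 CPM (36.4 to 929.9) at 1 month and 75.6 CPM (16.2 to 1607) at 24 h. In the inputs they summed to 47.1 and 43.7 CPM. Unlike the astrocyte and oligodendrocyte markers, they were thus not lower in every purified saline library than in the inputs. The part of other cells in the level of Kcng3 was not tested. The leak channel Kcnk2 had 479.2 CPM in saline replicate 5 at 24 h and 68.6 to 124.3 CPM in the other 4 saline libraries at 24 h.

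Kcnh6 (chromosome 11, 106008124 to 106034549) had 3.14, 1.57, 1.87, 19.99 and 1.98 CPM at 1 month, against 1.52, 0.894, 0.191, 0 and 0.698 CPM at 24 h. The groups did not overlap, although the counts were few, 347 in saline replicate 4 at 1 month, 23 to 35 in the other 4 and 0 to 15 at 24 h. The log2 fold change was 3.07 ± 0.77 (adjusted p = 0.0434, edgeR). Without saline replicate 4 at 1 month it was 1.59 (adjusted p = 0.289), and without saline replicate 5 at 24 h it was 2.78 ± 0.77 (adjusted p = 0.0796). The call was lost in 7 of the 10 fits with 1 library left out.

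Kcnc1 (chromosome 7, 46396497 to 46438704), which lets neurons fire narrow spikes at high rates, had 82.9, 140.3, 76.1, 89.8 and 83.4 CPM at 1 month, against 122.7, 128.1, 176.3, 174.4 and 128.1 CPM at 24 h. Only saline replicate 2 at 1 month overlapped the 24 h group. Its log2 fold change of -0.70 ± 0.18 missed the threshold (adjusted p = 0.0536, edgeR). Leaving out 1 library at a time gave values of -0.90 to -0.61, which passed in 4 of 10 cases, without replicate 2 at 1 month or without replicate 1, 2 or 6 at 24 h, and did not pass in the other 6 (adjusted p of 0.0274 to 0.133 over the 10). The 12 interneuron markers had a median sum of 52.4 CPM (44.1 to 152.2) at 1 month and 106.0 CPM (32.4 to 235.5) at 24 h, and the 6 cortical neuron markers 88.0 CPM (35.5 to 271.3) and 120.2 CPM (61.3 to 320.3). Of the interneuron markers 6 were at 0 in some library at 1 month, namely Pvalb, Npy, Slc5a7, Slc18a3, Vip and Nkx2-1, and 9 at 24 h, where Slc18a3 was at 0 in all 5 libraries. Their part in the level of Kcnc1 was not tested.

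Beyond these, Kcnma1 and Kcna4 had separate groups without passing the test. Kcnma1 had 127.4 to 146.4 CPM at 1 month, against 158.2 to 245.8 CPM at 24 h (log2 fold change -0.48 ± 0.15, adjusted p = 0.0944). Kcna4 had 145.6 to 195.5 CPM at 1 month, against 221.7 to 258.4 CPM at 24 h (-0.55 ± 0.17, adjusted p = 0.0947). With Kcna2 and Kcnh6 this makes 4 of 63 members with groups that do not overlap, 1 higher and 3 lower at 1 month, against 2.97% of all genes.

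**Figure D4:**
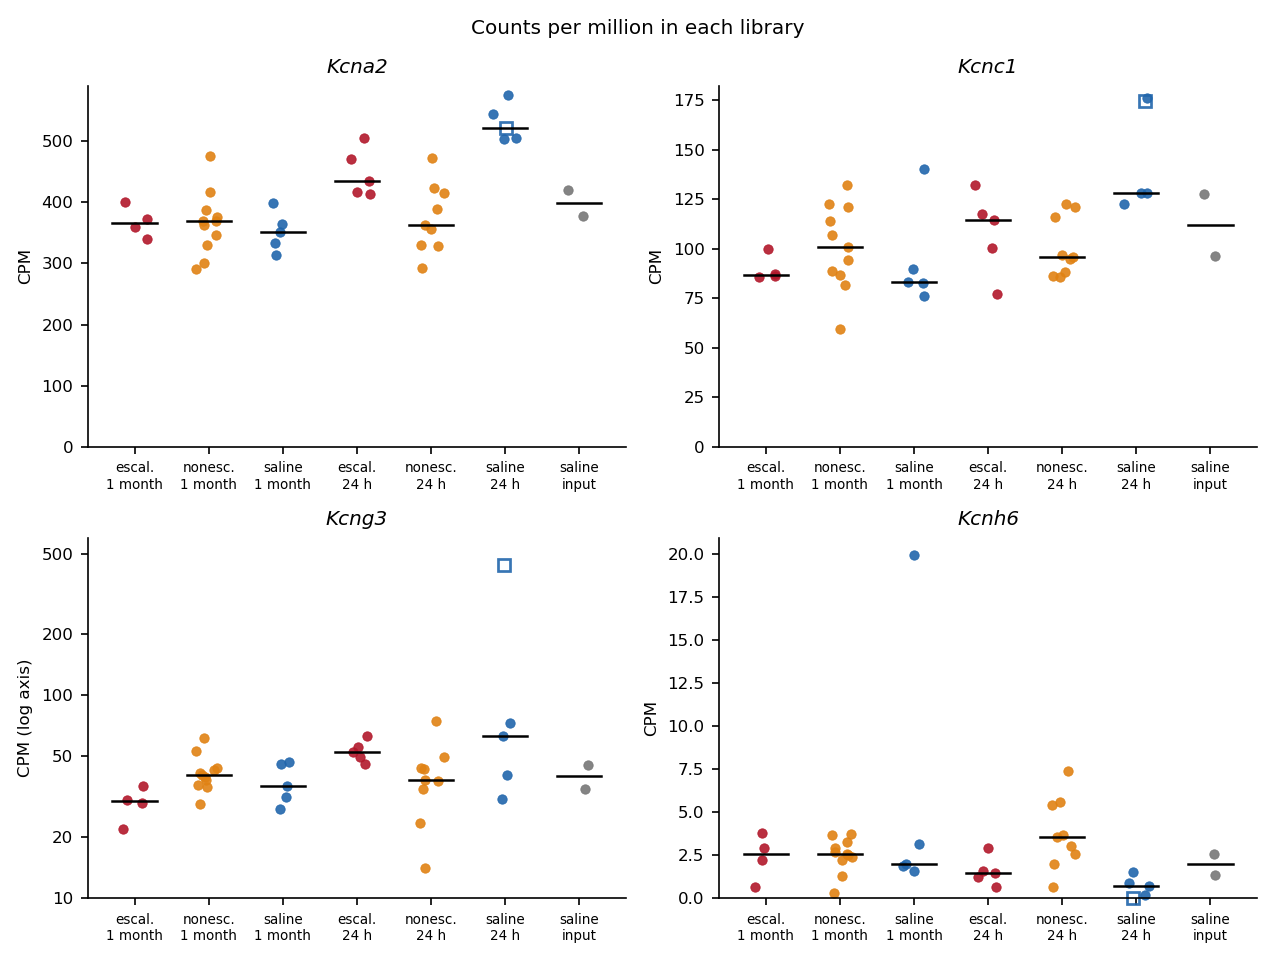
CPM of Kcna2, Kcnc1, Kcng3 and Kcnh6 in each library of the 6 purified groups and the input, with a line at each group's median and a log axis for Kcng3. The open square is saline replicate 5 at 24 h, which holds 437.1 CPM of Kcng3, and all saline libraries at 24 h hold at least 503.2 CPM of Kcna2.

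At 24 h the cocaine groups were each compared with the same 5 saline libraries, so the results against saline share their controls, also with the saline comparison over time. For nonescalating against saline, 0 of 63 members and 0% of all 13437 genes were called by edgeR. At an unadjusted p under 0.05 there were 10 of 63 members, against 11.9% of all genes. DESeq2 called 4 of 63 members, Kcna2, Kcnc1 and Kcng3 lower and Kcnh6 higher, against 0.871% of all genes. The members' median log2 fold change was -0.12, beside -0.01 over all genes.

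The lowest p of nonescalating against saline was that of Kcna2. It had a lowest value of 292.1, a median of 362.1 and a highest of 472.2 CPM in nonescalating libraries, against 575.8, 505.8, 544.8, 521.3 and 503.2 CPM in saline libraries. No nonescalating library reached the lowest saline library. The log2 fold change was -0.59 ± 0.12 (adjusted p = 0.129, edgeR), and it was -0.57 ± 0.13 (adjusted p = 0.13) without saline replicate 5. With only the first run of nonescalating libraries it was -0.56 ± 0.13 and with only the second -0.64 ± 0.16. When all 39 purified libraries shared 1 estimate of the spread, the adjusted p was 0.00855, and 4 of 63 members were called, namely Kcna2, Kcnc1, Kcng3 and Kcnk2, against 1.82% of all genes. Neither this fit nor DESeq2 was run for this comparison without saline replicate 5. That library held 479.2 CPM of Kcnk2, against 68.6 to 124.3 CPM in the other saline libraries at 24 h. Nonescalating libraries at 24 h held 67.7 to 124.0 CPM of Kcnk2. Kcng3 is given without that library below.

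Kcnc1 had 85.7, 96.0 and 122.4 CPM (lowest, median, highest) in nonescalating libraries, against 122.7, 128.1, 176.3, 174.4 and 128.1 CPM in saline libraries. These groups too did not overlap, though by a narrow gap. The log2 fold change was -0.63 ± 0.16 (adjusted p = 0.198, edgeR), -0.54 ± 0.19 with the first nonescalating run and -0.80 ± 0.23 with the second. Kcna2 and Kcnc1 were the 2 of 63 members whose groups were separate here, against 0.35% of all genes.

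Kcng3 had 14.1, 38.1 and 74.9 CPM (lowest, median, highest) in nonescalating libraries, against 30.9, 63.3, 72.7, 437.1 and 40.4 CPM in saline libraries. Here the groups overlapped widely. Its log2 fold change of -1.83 ± 0.46 (adjusted p = 0.198, edgeR) became -0.45 ± 0.29 (adjusted p = 0.602) without saline replicate 5.

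For escalating against saline at 24 h, 0 of 63 members and 0% of all genes were called by edgeR, and DESeq2 called 0 members. At an unadjusted p under 0.05 there were 7 of 63 members, against 10.7% of all genes. The lowest p was that of Kcna6, a Shaker-type pore subunit, with 15.6, 21.002, 35.6, 23.0 and 37.2 CPM in escalating libraries, against 38.1, 49.6, 60.7, 102.0 and 30.1 CPM in saline libraries. All but 1 saline library lay above all escalating ones. Its log2 fold change was -1.18 ± 0.36 (adjusted p = 0.351, edgeR). Of the exon bases of Kcna6, 39.61% are shared with the antisense gene Gm26673, and without a known strand setting the reads of the pair cannot be told apart.

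Kcna2 had 505.2, 471.2, 416.9, 413.7 and 435.5 CPM in escalating libraries at 24 h, between the nonescalating and the saline values and overlapping both. Its log2 fold change against saline was -0.31 ± 0.14 (adjusted p = 0.435, edgeR). Kcnc1 had 132.3, 100.6, 114.3, 77.1 and 117.3 CPM in escalating libraries (-0.51 ± 0.19 against saline, adjusted p = 0.374). Kcng3 had 62.9, 49.99, 45.8, 52.8 and 55.8 CPM in escalating libraries, within the range of the saline libraries. Its log2 fold change against saline was -1.40 ± 0.55 (adjusted p = 0.40) with saline replicate 5 and -0.01 ± 0.33 without it. Kcng2, with the third lowest p, had 0 to 1.12 CPM in escalating libraries and 0 to 25.4 CPM in saline libraries, the highest being saline replicate 5 (-4.28 ± 1.61, adjusted p = 0.382), the library without which it would not be a member.

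Between escalating and nonescalating libraries at 24 h, edgeR called 0 of 63 members and 0% of all genes, and DESeq2 also called 0 members. At an unadjusted p under 0.05 there were 3 of 63 members, against 4% of all genes. These were the beta subunit Kcnab2 (-0.55 ± 0.23), Kcna2 (0.27 ± 0.12) and the inward rectifier Kcnj2 (0.38 ± 0.17), each with an adjusted p of 0.999. Kcng3 (0.43 ± 0.47) and Kcnc1 (0.12 ± 0.16) had higher p values. Kcnab2 had 102.8, 197.0, 154.5, 158.1 and 127.3 CPM in escalating libraries, against 126.7, 218.0 and 360.4 CPM (lowest, median, highest) in nonescalating libraries. The 2 groups overlapped.

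At 1 month no member was called in any comparison among the cocaine and saline groups. For escalating against saline, edgeR called 0 of 63 members and 0% of all 14488 genes, with 1 member against 1.29% of all genes at an unadjusted p under 0.05. For nonescalating against saline the counts were 0 of 63 members and 0% of all genes, with 2 members against 3.6% of all genes unadjusted. For escalating against nonescalating they were 0 of 63 and 0%, with 2 members against 1.22% of all genes unadjusted. DESeq2 called 0 members in each of these 3 comparisons.

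Kcna2 at 1 month had 359.3, 340.2, 399.7 and 373.0 CPM in escalating libraries and 290.0, 368.9 and 476.1 CPM (lowest, median, highest) in nonescalating libraries, against 313.2 to 398.0 CPM in saline libraries. The 3 groups overlapped. Its log2 fold changes against saline were 0.02 ± 0.14 for escalating and 0.04 ± 0.11 for nonescalating. Kcnc1 had 87.4, 99.8, 85.6 and 86.3 CPM in escalating libraries and 59.7, 100.6 and 132.2 CPM in nonescalating libraries, against 76.1 to 140.3 CPM in saline libraries, with folds of -0.12 ± 0.19 and 0.08 ± 0.15. Kcng3 had 29.5, 30.6, 35.9 and 22.0 CPM in escalating libraries and 29.1, 40.8 and 61.9 CPM in nonescalating libraries, against 27.7 to 47.1 CPM in saline libraries. Among members it had the lowest p of escalating against nonescalating (-0.55 ± 0.20, adjusted p = 0.9998, edgeR), with overlapping groups, before Kcnt2 (-1.07 ± 0.47) and Kcnt1 (-0.28 ± 0.14).

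The sodium-activated channel Kcnt2 had the lowest p of escalating against saline at 1 month. It had 1.59 to 2.97 CPM in escalating libraries, against 1.90 to 11.9 CPM in saline libraries, a log2 fold change of -1.36 ± 0.53 (adjusted p = 0.9998, edgeR). Next came Kcnu1, a channel of sperm cells, at 1.57 ± 0.84 and Kcnh6 at -1.34 ± 0.73. For nonescalating against saline the lowest p values were those of Kcnh6 (-1.25 ± 0.54), Kcng2 (-1.88 ± 0.85) and Kcnj3 (-0.51 ± 0.25), a G-protein-gated inward rectifier, all with an adjusted p of 0.999. Kcnj3 shares 31.08% of its exon bases with Gm26794 on the opposite strand, so the limit given for Kcna6 holds for it too. Kcnh6 had 0.315, 2.58 and 3.72 CPM in nonescalating libraries and 0.630 to 3.80 CPM in escalating libraries, against 3.14, 1.57, 1.87, 19.99 and 1.98 CPM in saline libraries. Apart from saline replicate 4, the saline libraries lay within the ranges of both cocaine groups. Without that library the log2 fold change of Kcnh6 against saline was 0.13 for escalating and 0.22 for nonescalating.

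Within the cocaine groups, no member was called between 1 month and 24 h. For nonescalating libraries the counts were 0 of 63 members and 0% of all genes, with 1 member against 2.76% of all genes at an unadjusted p under 0.05. That member was Kcnma1, at -0.25 ± 0.10 (adjusted p = 0.9999, edgeR). Next in order of p were Kcnu1 (1.32 ± 0.67) and Kcna4 (-0.19 ± 0.12). For escalating libraries they were 0 of 63 and 0%, with 3 members against 5.5% of all genes unadjusted, and DESeq2 called 0 members in either group. The 3 were Kcna2 (-0.32 ± 0.14), Kcnab2 (0.51 ± 0.22) and Kcna4 (-0.37 ± 0.18), with adjusted p of 0.899 to 0.905. In escalating libraries Kcna2 had 359.3, 340.2, 399.7 and 373.0 CPM at 1 month, against 505.2, 471.2, 416.9, 413.7 and 435.5 CPM at 24 h. These groups did not overlap, and the same held for Kcnab2, Kcna4 and Kcng3, so that 4 of 63 members were separate, against 4.86% of all genes.

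Kcnab2 had 207.2, 219.2, 212.8 and 225.7 CPM in escalating libraries at 1 month, against 102.8, 197.0, 154.5, 158.1 and 127.3 CPM at 24 h, while Kcna4 had 162.7 to 192.1 CPM at 1 month, against 205.4 to 258.3 CPM at 24 h. Kcng3 had 22.0 to 35.9 CPM at 1 month, against 45.8 to 62.9 CPM at 24 h, a log2 fold change of -0.90 ± 0.45. In nonescalating libraries the folds over time were -0.03 ± 0.09 for Kcna2, 0.00 ± 0.13 for Kcnc1 and 0.09 ± 0.30 for Kcng3.

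The change over time in the 2 cocaine groups was then set against the change in the saline group, as the test of whether the difference over time differs. No member was called (0 of 63), while 0.0132% of all genes were. At an unadjusted p under 0.05 there were 7 of 63 members, against 10.8% of all genes, and DESeq2 called 0 members. The lowest p values were those of Kcnh6 (-3.10 ± 0.88, adjusted p = 0.197, edgeR), Kcna2 (0.48 ± 0.15, adjusted p = 0.235) and Kcng3 (1.47 ± 0.50, adjusted p = 0.258). Leaving out 1 library at a time moved Kcnh6 to between -3.56 and -1.62 (adjusted p of 0.0993 to 0.533, edgeR). It moved Kcnc1 to between 0.45 and 0.74 (adjusted p of 0.211 to 0.540, edgeR). Without saline replicate 5 at 24 h the value of Kcna2 was 0.47 ± 0.16 and that of Kcng3 was 0.12 ± 0.34. Thus the fall of Kcna2 in the saline group was not shown to differ from the change in the cocaine groups.

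**Figure D5:**
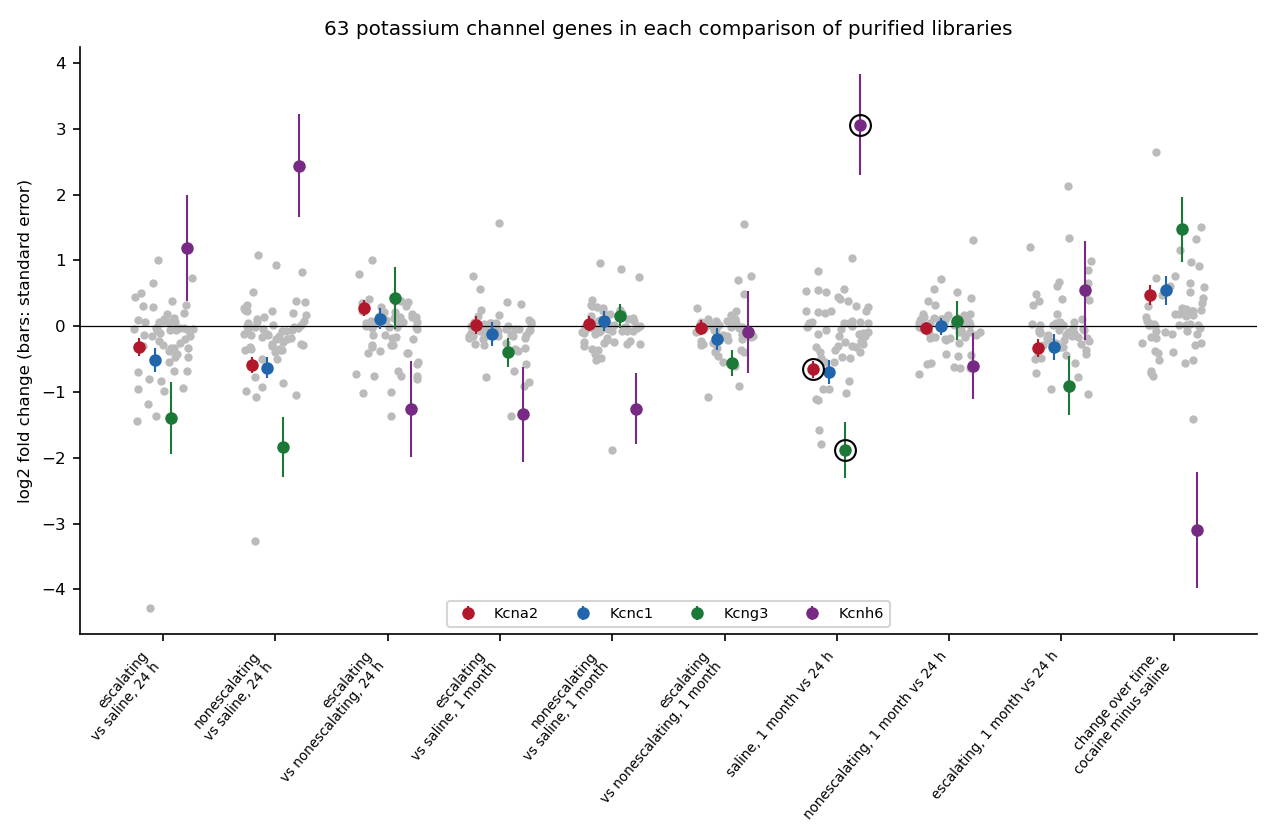
log2 fold change of each of the 63 members in the 10 comparisons among purified libraries, with Kcna2, Kcnc1, Kcng3 and Kcnh6 in colour with standard errors and the other members in grey. Black rings mark the 3 calls, all in saline libraries at 1 month against 24 h. The comparisons that use saline libraries at 24 h share those 5 controls.

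Partner genes of potassium channels were listed as well, 30 in all, among them proteins that bind channels, and receptors and G proteins that act on them. In saline purified RNA against input, 3 of the 28 tested rose and 0 fell, against 1.84% higher and 2.81% lower of all genes. These were the muscarinic receptor gene Chrm1, which closes M-current channels through its G protein, the G-protein regulator Rgs7 and the scaffold gene Dlg4, which anchors Shaker and inward rectifier channels at synapses. Chrm1 averaged 188.6 CPM in purified libraries and 105.2 CPM in the inputs (log2 fold change 1.02 ± 0.21, adjusted p = 0.0159, edgeR). Rgs7 averaged 130.0 CPM in purified libraries and 79.1 CPM in the inputs (0.89 ± 0.21, adjusted p = 0.0245). Dlg4 averaged 752.7 CPM in purified libraries and 456.8 CPM in the inputs (0.91 ± 0.24, adjusted p = 0.0461). Further fits, chosen after seeing the data, left out single libraries. Without saline replicate 5 at 24 h, 6 partner genes were higher and 1 lower, against 15% of all genes, and Chrm1 (1.01 ± 0.20), Rgs7 (0.89 ± 0.19) and Dlg4 (0.85 ± 0.21) were still called. With either input left out, 0 partner genes were called, and the 3 had folds of 0.81 to 1.05 with adjusted p of 0.224 to 0.427.

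In each of the 10 comparisons among purified libraries, 0 of the partner genes tested were called. In saline libraries at 1 month against 24 h the lowest p values belonged to Amigo1 (-0.57 ± 0.20, adjusted p = 0.14, edgeR), a membrane protein that binds Shab-type channels, and to Dpp10 (-0.58 ± 0.21, adjusted p = 0.159), which attaches to A-type channels. Amigo1 averaged 51.5 CPM at 1 month and 72.7 CPM at 24 h. In escalating against saline libraries at 24 h they belonged to Amigo1 (-0.53 ± 0.22), Rgs7 (-0.41 ± 0.18) and Gnb5 (0.40 ± 0.18), with adjusted p of 0.428 to 0.442. In nonescalating against saline libraries at 24 h, Rgs7 had -0.33 ± 0.16 (adjusted p = 0.416, edgeR) and Fmr1 -0.56 ± 0.27 (adjusted p = 0.421). In escalating against nonescalating libraries at 24 h the lowest p values belonged to Chrm1 (-0.30 ± 0.18), Dlg2 (0.20 ± 0.13) and Cntn2 (-0.49 ± 0.32), each with an adjusted p of 0.999. At 1 month the lowest p belonged to Dpp6 for escalating against saline (-0.27 ± 0.13), to Rgs7 for nonescalating against saline (-0.30 ± 0.12) and to Adam22 for escalating against nonescalating (-0.22 ± 0.09). Over time it belonged to Ank3 in escalating libraries (-0.35 ± 0.16), to Amigo1 in nonescalating libraries (-0.29 ± 0.14) and to Dpp6 for the change in cocaine minus saline (-0.50 ± 0.21).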

How the data were processed

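Gene counts of 41 libraries were used as the authors deposited them, whole-number counts per gene with no normalization, made with STAR 2.0.0e and HTSeq on mm10, per the submitters' processing notes. Annotation and strand setting were not given in the sources used here. The 5 summary lines of each file were left out, and reads without a feature came to 14.3% to 37.1% of a library. CPM was taken against the total on genes. Differences were tested with edgeR 4.0.16 in R 4.3.3 (TMM, filterByExpr, quasi-likelihood test, Benjamini-Hochberg adjustment over all genes tested, threshold 0.05). Each time was fitted with its 3 groups, comparisons over time with all 6 purified groups, and purified RNA against input with the saline libraries. The standard error is the fold change divided by the root of F. The script was tested on simulated data. Alternatives were DESeq2 1.42.0, other scaling and filters, a replicate block, a fit of all 39 purified libraries, single runs of the nonescalating groups and leaving out each library. No 2 libraries of a group agreed within counting noise.

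Named are Kcna2, Kcnc1 and Kcng3, the members called, or the 3 with the lowest p where fewer than 3 were called, the 2 highest in CPM of each class, and the 3 nearest the threshold on either side. A few genes that this rule names, or that the figures would, are not reported here, while counts over all members include them. Kcnc2 and other genes named beside these were chosen after their values were seen. The members, gene lists and tests were chosen with earlier results of these data known. Promoter sequences are those of RefSeq, and lengths and positions those of GENCODE M21.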

Additional observations from a re-analysis of the deposited data

Results flagged for a closer look

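Among 25 named members, 125 groups of 4 to 9 libraries were searched for a library apart from the rest of its group, and 12 held one. The nonescalating group at 1 month, with 11 libraries, was not searched. The nominal rate of the search is about 1 in 20 groups. Many of the 25 were named for low p values in these same libraries, so the 12 cannot be set against that rate. Of the 12, 6 fell on saline replicate 5 at 24 h. Among these 6 was Kcng2, a member only through that library, with a mean of 0.898 CPM over the other 38 purified libraries. In that library Kcng3 stood at 437.1 CPM (30.9 to 72.7 in the other 4), Kcnk2 at 479.2 CPM (68.6 to 124.3), Kcnma1 at 245.8 CPM (158.2 to 175.1) and Kcng2 at 25.4 CPM (0 to 3.24). It was the lowest of its group for Kcnv1, at 2.595 CPM (54.5 to 72.1), and for Kcnk1, at 16.5 CPM (60.4 to 69.7).

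In saline replicate 4 at 1 month Kcnh6 stood at 19.99 CPM (1.57 to 3.14) and Kcnj3 at 40.32 CPM (22.4 to 27.3). Kcnc1 stood at 140.3 CPM in saline replicate 2 at 1 month (76.1 to 89.8) and at 99.83 CPM in escalating replicate 2 at 1 month (85.6 to 87.4). Kcnab1 stood at 439.6 CPM in escalating replicate 1 at 24 h (316.3 to 348.1), and Kcnrg at 4.313 CPM in escalating replicate 3 at 24 h (0 to 1.22).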

How the results depend on the processing

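In 8 of 11 comparisons 0 members were called under each of the 187 alternatives run. Of 1185 alternatives of named genes 34 turned the direction, 26 of them by leaving out 1 library, and 0 of the 34 involved a value called in either fit. Leaving out 1 library moved Kcnh6 at 1 month to between -1.65 and 0.13 in escalating and -1.48 and 0.22 in nonescalating against saline libraries, positive without saline replicate 4 only, and Kcnc1 in escalating against saline libraries to between -0.18 and 0.075, positive without saline replicate 2 only. It moved Kcna2 at 1 month to between -0.029 and 0.078 in escalating against saline, -0.00082 and 0.10 in nonescalating against saline, and -0.073 and 0.020 in escalating against nonescalating libraries. In nonescalating libraries over time it gave -0.066 to 0.028 for Kcna2, -0.034 to 0.048 for Kcnc1 and -0.026 to 0.29 for Kcng3. There the second run alone gave 0.018 for Kcna2, 0.027 for Kcna4 and -0.36 for Kcng3, the first run alone -0.096 and the replicate block -0.029 for Kcnc1. With the second run alone, Kcna2 in escalating against nonescalating libraries at 1 month was 0.010. With the 1 month libraries alone against input, Kcna2 was -0.0015 and Kcnc1 -0.058. For nonescalating against saline libraries at 24 h, DESeq2 called 4 members (0.871% of all genes), against 0. With all 39 purified libraries in 1 fit 4 were called (1.82% of all genes). Both of these fits included saline replicate 5 at 24 h. For saline libraries at 1 month against 24 h, DESeq2 called 7 members (4.13% of all genes), against 3 (0.843%). Leaving out 1 library gave 0 to 5. There were 5 without replicate 2 or 6 at 24 h. Only 1 was called without replicate 5 at 24 h or 3 or 4 at 1 month. None was called without replicate 1 or 5 at 1 month. For saline purified RNA against input, 3 members were called (4.65% of all genes), and 1 at a mean CPM of at least 5. With the 24 h libraries alone there were 0 (0.0823% of all genes) and with the 1 month libraries alone 13 (19.4%). Leaving out 1 library gave 0 to 9 there, with 9 without replicate 5 at 24 h (15% of all genes). Only 1 was called without replicate 6 at 24 h or 2, 4 or 5 at 1 month. None was called without replicate 2 at 24 h, 1 or 3 at 1 month, or either input (0.262% and 0.3% of all genes). The cause was not tested. With the replicate number as a block, 1 member was called in saline libraries over time and 0 in purified RNA against input. Where no share of all genes stands beside a count, here or for DESeq2 above, it cannot be read as particular to the members. Libraries that share a number had a median correlation of -0.00445 (-0.290 to 0.256) at 24 h and -0.0356 (-0.496 to 0.181) at 1 month. Over 0.1 lay 6 of 20 such pairs at 24 h and 1 of 22 at 1 month. The numbers were not taken as pairs, although these medians cannot exclude single pairs. Low counts limit Kcnh6, Kcng2, Kcnrg and Kcnu1, and 2 inputs limit the comparison with input.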
